A study of Homo sapiens with 18 samples.

Results

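The mRNAs of 10 calcium-linked proteins of the endoplasmic reticulum (ER) and Golgi lumen, most of them secreted or able to leave the ER, were followed through ER stress and ERN2 induction. They are MANF, CDNF, CRELD1, CRELD2, STC1, STC2, NUCB1, NUCB2, RCN1 and SDF4, chosen by name from the 25435 rows of the gene count table, and all 10 had a row. The cells were HEK293doxERN2, a line derived from human embryonic kidney that carries FLAG-tagged human ERN2, an inositol-requiring ER stress sensor of mucus-producing epithelia, under a doxycycline-inducible promoter. All 6 groups carry the transgene. Doxycycline was given over 24 hours at 0, 10 or 100 ng/mL (No, Low and High ERN2 in the labels), and within each dose cells received either DMSO vehicle or 200 nM thapsigargin for 3 hours, with 3 libraries per group and 18 in all. No line without the transgene was among the samples, so effects of doxycycline itself and of ERN2 cannot be told apart, and whether the line is 1 clone was not stated in the sources used here.

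Thapsigargin blocks the SERCA pump that fills the ER with calcium, and the emptied ER accumulates misfolded proteins and starts the unfolded protein response. That response runs through IRE1-type sensors, which splice XBP1 mRNA and can also cleave other ER-targeted mRNAs, through ATF6, and through PERK with its effectors ATF4 and CHOP. Of the proteins described here, the nucleobindins, RCN1 and SDF4 bind calcium directly through EF-hand domains. MANF resides in the ER in a calcium-sensitive way, together with the chaperone BiP.

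Library totals ran from 14876416 to 24652240 counts. ERN2 was at 6.57 to 9.1 CPM (reads of a gene scaled to a common library size) in uninduced vehicle cells, at 22.5 to 55.9 CPM with 10 ng/mL and at 249 to 309 CPM with 100 ng/mL. Under thapsigargin it was at 10.4 to 14.2, 32.1 to 112 and 175 to 272 CPM in the same order of dose. Replicate 3 at 10 ng/mL had the highest ERN2 of its dose in vehicle and in thapsigargin, 55.9 and 112 CPM, against 22.5 to 27.1 and 32.1 to 53.9 CPM in the other libraries. The labels' extraction text names colon crypt epithelial cells, and the libraries were checked against markers of both sources. All 6 markers of HEK293 cells had reads, with VIM between 1336 and 2372 CPM, whereas 10 of 11 colon epithelial markers stayed under 1 CPM in every library and TFF3 was at 0 reads throughout. CDX2 was the exception at 3.36 to 8.83 CPM. The labels and methods do not say that libraries of a group came from separate cultures, so p-values measure the spread between these libraries, which may be technical.

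The starts of the genes that rose together under thapsigargin are shown here, with NUCB1, which did not rise, for contrast. The RefSeq promoter table (GRCh38.p14) held 9 of the 10 genes in 11 windows, and the 250 bases before each start were searched on both strands. Capitals mark CCAAT on either strand (written ATTGG where it lies on the opposite strand), and also CCACG (or CGTGG) where it completes an exact ER stress response element. That element, ERSE, is CCAAT and CCACG with 9 bases between them, and ERSE-II is ATTGG and CCACG with 1 base between them, so each contains a CCAAT match.
MANF (chr3:51385041-51385290, plus strand): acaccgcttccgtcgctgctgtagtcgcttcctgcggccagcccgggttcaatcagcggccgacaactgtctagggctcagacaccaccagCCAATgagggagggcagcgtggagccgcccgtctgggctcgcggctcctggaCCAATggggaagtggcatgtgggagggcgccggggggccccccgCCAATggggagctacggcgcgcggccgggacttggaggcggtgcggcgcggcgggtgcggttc
CRELD2 (chr22:49918384-49918633, plus strand): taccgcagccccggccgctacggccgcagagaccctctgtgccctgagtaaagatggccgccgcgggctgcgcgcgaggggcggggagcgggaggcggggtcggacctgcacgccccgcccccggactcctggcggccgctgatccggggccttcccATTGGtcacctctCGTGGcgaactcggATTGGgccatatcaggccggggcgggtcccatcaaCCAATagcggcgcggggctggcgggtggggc
CRELD1 (chr3:9933584-9933833, plus strand): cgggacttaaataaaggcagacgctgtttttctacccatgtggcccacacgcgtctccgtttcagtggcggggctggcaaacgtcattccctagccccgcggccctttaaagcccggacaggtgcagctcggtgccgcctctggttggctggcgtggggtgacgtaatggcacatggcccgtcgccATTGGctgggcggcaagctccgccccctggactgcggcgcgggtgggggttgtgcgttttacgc
STC2 (chr5:173328415-173328664, minus strand): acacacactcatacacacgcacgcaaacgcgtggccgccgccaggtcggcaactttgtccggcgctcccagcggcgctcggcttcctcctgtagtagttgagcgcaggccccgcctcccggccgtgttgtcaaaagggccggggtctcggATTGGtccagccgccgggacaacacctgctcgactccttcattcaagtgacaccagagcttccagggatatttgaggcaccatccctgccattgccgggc
NUCB1 (chr19:48900062-48900311, plus strand): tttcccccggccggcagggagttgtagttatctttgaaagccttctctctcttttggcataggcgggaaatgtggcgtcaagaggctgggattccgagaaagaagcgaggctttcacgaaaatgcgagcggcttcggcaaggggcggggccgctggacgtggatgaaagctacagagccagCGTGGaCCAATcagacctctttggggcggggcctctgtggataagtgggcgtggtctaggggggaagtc

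A CCAAT match was present in 9 of the 11 windows, at least 1 for each of the 9 genes, and in 32.0% of all 35116 windows of this length in the table. An exact ERSE was found in CRELD2 alone of these genes, and 0.0740% of all windows hold one. An exact ERSE-II was found in NUCB1 alone, and 0.0513% of all windows hold one. With 1 mismatch allowed, an ERSE was also found for CRELD1 and SDF4 and an ERSE-II also for MANF, where 1.36% and 1.14% of all windows hold one. Neither TGACGTGG nor TTGCATCA, the cores of an unfolded protein response element and of a C/EBP-ATF element, occurred in any of these 11 windows, and 0.612% and 0.772% of all windows hold them. These are letter matches only. CRELD1 has a further RefSeq start whose window had no CCAAT.

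Per length of annotated exon, the uninduced vehicle cells expressed RCN1 most, at 98.4 ± 5.44 CPM per kilobase (SD, n = 3). SDF4 followed at 88.5 ± 6.66, MANF at 73.3 ± 8.26 and NUCB1 at 70.0 ± 5.45 CPM per kilobase, and the libraries of RCN1 and SDF4 overlapped, as did those of MANF and NUCB1, while those of SDF4 and MANF did not. NUCB2 at 38.7 ± 9.02 and CRELD2 at 30.3 ± 2.60 CPM per kilobase came next, with NUCB2 libraries all above those of CRELD2 by a small margin. CRELD1 at 6.27 ± 0.420, STC2 at 4.67 ± 0.124, STC1 at 1.61 ± 0.246 and CDNF at 0.656 ± 0.189 CPM per kilobase formed the lower end. Within gene pairs, MANF exceeded CDNF 112-fold per kilobase, CRELD2 exceeded CRELD1 4.82-fold, STC2 exceeded STC1 2.90-fold and NUCB1 exceeded NUCB2 1.81-fold. Under thapsigargin without doxycycline the order changed, with MANF first at 329 ± 63.9 and CRELD2 second at 117 ± 23.2 CPM per kilobase.

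**Figure D1:**
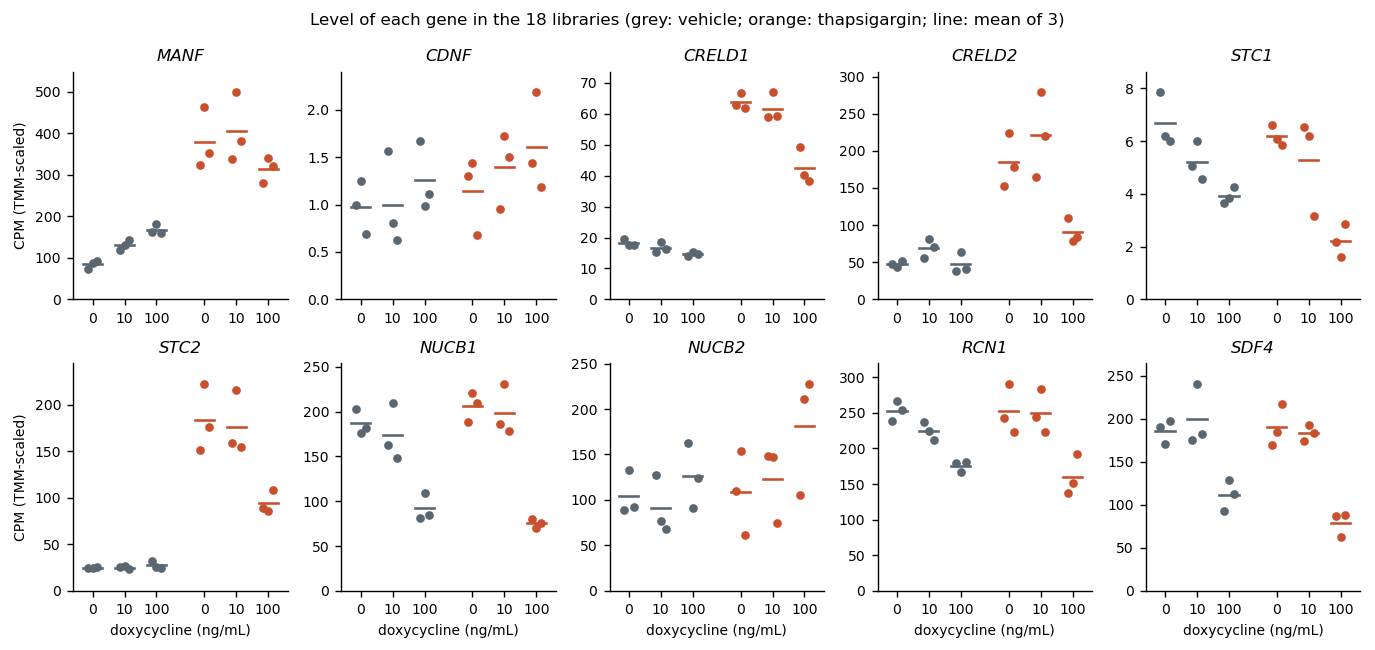
Level of each of the 10 genes in CPM (linear axis from 0, scaled by TMM over 18 libraries) against doxycycline dose, 1 point per library, with the mean of 3 libraries as a line, vehicle in grey and thapsigargin in orange. MANF, CRELD1, CRELD2 and STC2 stand higher in thapsigargin at every dose, whereas NUCB1 and SDF4 are low at 100 ng/mL in both treatments.

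Thapsigargin raised 4 of the 10 mRNAs in uninduced cells, namely MANF, CRELD1, CRELD2 and STC2, and left none lower at an adjusted p of 0.01. The background for higher calls in that comparison was 6.45% of the 14397 genes tested. The same 4 genes rose at 10 ng/mL, where the background was 1.16%. At 100 ng/mL 3 of them rose, MANF, CRELD1 and STC2, against a background of 0.180%, and CRELD2 missed the threshold. STC2 showed the largest response of the 10 genes at each dose. The other 6 genes ranged between -0.10 and 0.23 log2 units in uninduced cells, and none passed this test at any dose.

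**Figure D2:**
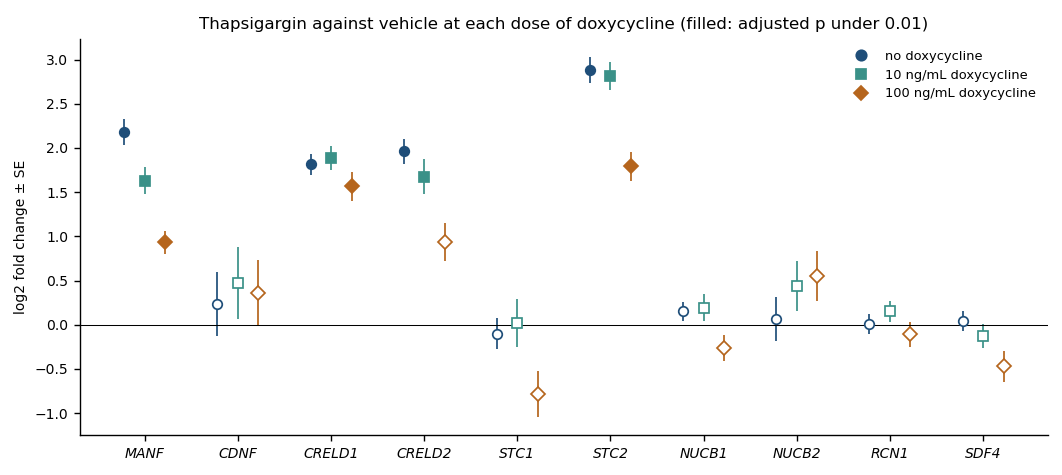
Log2 fold change of thapsigargin against vehicle with its standard error for the 10 genes at 0, 10 and 100 ng/mL doxycycline, from edgeR fits of 6 libraries each, with filled symbols for an adjusted p under 0.01. STC2 has the largest value at each dose (2.88, 2.81 and 1.79), and MANF steps down from 2.18 to 1.63 to 0.93.

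MANF is a small soluble ER protein with a C-terminal retention signal that is released when ER calcium falls, and it acts as a survival factor. In uninduced vehicle cells MANF stood at 73.9, 87.4 and 92.2 CPM, and in uninduced thapsigargin cells at 323, 463 and 353 CPM. With 10 ng/mL it stood at 120.1, 130.0 and 142 CPM in vehicle and at 338, 499 and 382 CPM in thapsigargin, and with 100 ng/mL at 162, 181 and 159 against 281, 341 and 321 CPM. In vehicle the 3 doses did not overlap, every library at 10 ng/mL being above every uninduced library and below every library at 100 ng/mL. In thapsigargin the doses overlapped.

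The thapsigargin response of MANF was a log2 fold change of 2.18 ± 0.14 (SE, edgeR adjusted p = 6.76e-07) without doxycycline. It was 1.63 ± 0.15 (edgeR adjusted p = 0.000406) at 10 ng/mL and 0.93 ± 0.13 (edgeR adjusted p = 0.00969) at 100 ng/mL. Between 0 and 100 ng/mL MANF rose by 0.94 ± 0.12 log2 units in vehicle (edgeR adjusted p = 0.000106) but differed by -0.27 ± 0.16 in thapsigargin (edgeR adjusted p = 0.243). At 10 ng/mL the vehicle difference was 0.63 ± 0.12 (edgeR adjusted p = 0.0303), and DESeq2 called it at 0.000412. The MANF window shown above, with its 3 CCAAT boxes, belongs to the gene at chr3:51385047-51389397 in the GENCODE 29 annotation.

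CDNF, the paralog of MANF, was close to the limit of measurement, with 12 to 38 reads in each of the 18 libraries. Uninduced vehicle cells had 1, 1.25 and 0.686 CPM and uninduced thapsigargin cells 1.30, 1.44 and 0.683 CPM. At 100 ng/mL the values were 1.67, 0.989 and 1.12 CPM in vehicle and 1.44, 2.18 and 1.19 CPM in thapsigargin, and the groups overlapped throughout. Its thapsigargin response was 0.23 ± 0.36 log2 units without doxycycline (edgeR adjusted p = 0.683). With standard errors of 0.34 to 0.57 in all 11 comparisons, only large changes of CDNF would have been detectable at this depth. The CDNF gene lies on chromosome 10 and overlaps HSPA14 on the opposite strand by 416 bases, and the strand setting of the counting was not given in the sources used here.

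CRELD2 is a soluble ER protein with EGF-like domains that is released from cells when ER calcium is lost, and CRELD1 is its membrane-anchored relative with a role in heart development. CRELD2 stood at 47.8, 43.6 and 51.8 CPM in uninduced vehicle cells and at 152, 224 and 178 CPM in uninduced thapsigargin cells. At 10 ng/mL it stood at 55.9, 81.2 and 69.9 CPM in vehicle and at 165, 279 and 221 CPM in thapsigargin. With 100 ng/mL it stood at 38.6, 64.3 and 41.6 CPM in vehicle and at 109.5, 78.7 and 83.4 CPM in thapsigargin. The 3 thapsigargin libraries at 100 ng/mL lay below every other thapsigargin library and still above the vehicle libraries of their dose.

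The CRELD2 response to thapsigargin was 1.96 ± 0.14 log2 units without doxycycline (edgeR adjusted p = 1.33e-06) and 1.68 ± 0.20 at 10 ng/mL (edgeR adjusted p = 0.00157). At 100 ng/mL it was 0.93 ± 0.21 and did not pass (edgeR adjusted p = 0.0446), although DESeq2 gave 0.000980. Among thapsigargin-treated cells CRELD2 fell by 1.03 ± 0.18 log2 units from 0 to 100 ng/mL (edgeR adjusted p = 0.00140) and by 1.29 ± 0.20 from 10 to 100 ng/mL (edgeR adjusted p = 0.00153). In vehicle its 100 ng/mL level differed from the uninduced level by -0.02 ± 0.18 log2 units (edgeR adjusted p = 0.940). Its window, with the exact ERSE, lies inside the annotated gene span chr22:49918167-49927540, and 292 bases of that span overlap ALG12 on the opposite strand.

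CRELD1 stood at 19.7, 17.5 and 17.6 CPM in uninduced vehicle cells and at 62.7, 66.6 and 61.8 CPM in uninduced thapsigargin cells. At 10 ng/mL the levels were 15.2, 18.4 and 16.4 CPM in vehicle and 58.9, 66.9 and 59.3 CPM in thapsigargin. With 100 ng/mL they were 13.9, 15.2 and 14.7 CPM in vehicle and 49.3, 40.3 and 38.3 CPM in thapsigargin. CRELD1 thus separated by treatment at every dose, and within thapsigargin the 100 ng/mL libraries lay below all the others.

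The CRELD1 response was 1.81 ± 0.12 log2 units without doxycycline (edgeR adjusted p = 5.13e-07) and 1.88 ± 0.13 at 10 ng/mL (edgeR adjusted p = 6.36e-05). At 100 ng/mL it was 1.57 ± 0.16 (edgeR adjusted p = 0.00269). The dose difference within thapsigargin was -0.58 ± 0.16 log2 units from 0 to 100 ng/mL and did not pass (edgeR adjusted p = 0.0197), although DESeq2 gave 0.00490. Within vehicle the dose difference was -0.36 ± 0.13 (edgeR adjusted p = 0.0924). The gene spans chr3:9933822-9945413 in GENCODE 29.

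The stanniocalcins are secreted glycoproteins first known as calcium-regulating hormones of fish, and STC2 is also a target of the PERK and ATF4 branch. STC2 stood at 24.7, 24.6 and 25.8 CPM in uninduced vehicle cells and at 151, 222 and 176 CPM in uninduced thapsigargin cells. At 10 ng/mL it stood at 25.3, 27.0 and 23.0 CPM in vehicle and at 159, 216 and 155 CPM in thapsigargin. With 100 ng/mL it stood at 32.3, 26.1 and 24.6 CPM in vehicle and at 89.1, 85.9 and 108 CPM in thapsigargin. The vehicle libraries of the 3 doses overlapped, whereas the thapsigargin libraries at 100 ng/mL lay below all others.

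The STC2 response was 2.88 ± 0.14 log2 units without doxycycline, or 7.38-fold (edgeR adjusted p = 4.81e-08), and 2.81 ± 0.16 at 10 ng/mL (edgeR adjusted p = 1.46e-05). At 100 ng/mL it was 1.79 ± 0.16, or 3.46-fold (edgeR adjusted p = 0.00102). Within thapsigargin STC2 fell by 0.96 ± 0.17 log2 units from 0 to 100 ng/mL (edgeR adjusted p = 0.00137) and by 0.90 ± 0.17 from 10 to 100 ng/mL (edgeR adjusted p = 0.00439). In vehicle the 100 ng/mL difference was 0.10 ± 0.13 log2 units (edgeR adjusted p = 0.646). The STC2 gene spans chr5:173314713-173329503 in GENCODE 29.

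STC1 behaved otherwise and was low, with 23 to 165 reads per library. It stood at 7.85, 6.19 and 6.00 CPM in uninduced vehicle cells and at 3.65, 3.83 and 4.25 CPM at 100 ng/mL, a fall of 0.82 ± 0.18 log2 units (edgeR adjusted p = 0.00901). Every one of the 6 fits that left out 1 library put this difference above the threshold, with adjusted p from 0.0140 to 0.0508. In thapsigargin STC1 stood at 6.61, 6.08 and 5.87 CPM without doxycycline, at 6.52, 6.18 and 3.16 CPM with 10 ng/mL and at 2.18, 1.62 and 2.84 CPM with 100 ng/mL. The fall from 0 to 100 ng/mL was 1.47 ± 0.26 log2 units there (edgeR adjusted p = 0.00148), with no overlap of libraries. Its thapsigargin response was -0.10 ± 0.17 without doxycycline and -0.79 ± 0.26 at 100 ng/mL (edgeR adjusted p = 0.712 and 0.109).

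NUCB1 and NUCB2 are EF-hand proteins of the secretory pathway, NUCB1 a resident of the Golgi lumen and NUCB2 the precursor of the peptide nesfatin-1. NUCB1 stood at 203, 176 and 181 CPM in uninduced vehicle cells, at 163, 209 and 148 CPM with 10 ng/mL and at 81.8, 109 and 85.2 CPM with 100 ng/mL. In thapsigargin it stood at 188, 221 and 209 CPM, 187, 231 and 178 CPM, and 80.6, 69.6 and 75.4 CPM in the same order. All 6 libraries at 100 ng/mL lay below all 12 others.

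NUCB1 fell by 1.06 ± 0.13 log2 units from 0 to 100 ng/mL in vehicle (edgeR adjusted p = 9.98e-05) and by 1.46 ± 0.14 in thapsigargin (edgeR adjusted p = 1.73e-05). Each of these calls held in all 6 fits with 1 library left out. From 10 to 100 ng/mL it fell by 0.94 ± 0.16 in vehicle (edgeR adjusted p = 0.00668) and by 1.40 ± 0.16 in thapsigargin (edgeR adjusted p = 0.000325), whereas from 0 to 10 ng/mL it differed by -0.11 ± 0.13 and -0.07 ± 0.13. Thapsigargin itself changed NUCB1 by 0.15 ± 0.10 log2 units in uninduced cells (edgeR adjusted p = 0.326). The gene spans chr19:48900050-48923372, and 7962 bases of it overlap NUCB1-AS1 on the opposite strand, so reads of both would be merged if strand was not used in counting.

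NUCB2 did not follow its paralog. It stood at 89.1, 133 and 92.2 CPM in uninduced vehicle cells and at 163, 90.7 and 124 CPM with 100 ng/mL, and in thapsigargin at 109.6, 154 and 61.7 CPM without doxycycline and at 105, 211 and 228 CPM with 100 ng/mL. Libraries of 1 group differed by up to 2.49-fold, and groups overlapped in all of these comparisons. From 0 to 100 ng/mL the difference was 0.22 ± 0.20 log2 units in vehicle (edgeR adjusted p = 0.479) and 0.73 ± 0.32 in thapsigargin (edgeR adjusted p = 0.121). Without replicate 1 of the thapsigargin group at 100 ng/mL, the thapsigargin difference became 1.03 ± 0.23 (edgeR adjusted p = 0.00135). A test of the difference between NUCB1 and NUCB2 was not run.

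RCN1 is an EF-hand protein held in the ER by a retention signal, and SDF4, also called Cab45, is an EF-hand protein of the Golgi lumen that helps sort secreted cargo. SDF4 stood at 191, 170.3 and 197 CPM in uninduced vehicle cells, at 175, 241 and 183 CPM with 10 ng/mL and at 92.4, 128 and 113 CPM with 100 ng/mL. In thapsigargin it stood at 169, 185 and 217 CPM, 174, 192 and 184 CPM, and 86.6, 62.8 and 88.0 CPM. As with NUCB1, every library at 100 ng/mL was below every library at the lower doses.

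SDF4 fell by 0.78 ± 0.13 log2 units from 0 to 100 ng/mL in vehicle (edgeR adjusted p = 0.00124) and by 1.27 ± 0.16 in thapsigargin (edgeR adjusted p = 0.000122). The falls from 10 to 100 ng/mL were 0.87 ± 0.15 (edgeR adjusted p = 0.00891) and 1.21 ± 0.16 (edgeR adjusted p = 0.000739). Its thapsigargin response was 0.04 ± 0.11 log2 units without doxycycline (edgeR adjusted p = 0.828). The gene spans chr1:1216908-1232031 in GENCODE 29.

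RCN1 stood at 238, 266 and 255 CPM in uninduced vehicle cells and at 179, 166 and 181 CPM with 100 ng/mL, a fall of 0.57 ± 0.10 log2 units (edgeR adjusted p = 0.00143). In thapsigargin it stood at 242, 291 and 223 CPM without doxycycline and at 138, 152 and 192 CPM with 100 ng/mL. The difference of -0.66 ± 0.16 log2 units did not pass (edgeR adjusted p = 0.0126), although the libraries did not overlap and DESeq2 gave 0.00206. Its thapsigargin response in uninduced cells was 0.00 ± 0.12 log2 units (edgeR adjusted p = 0.983). The gene shares 13762 bases on the same strand with AL035078.4 in GENCODE 29, so its counts depend on how that overlap was handled.

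**Figure D3:**
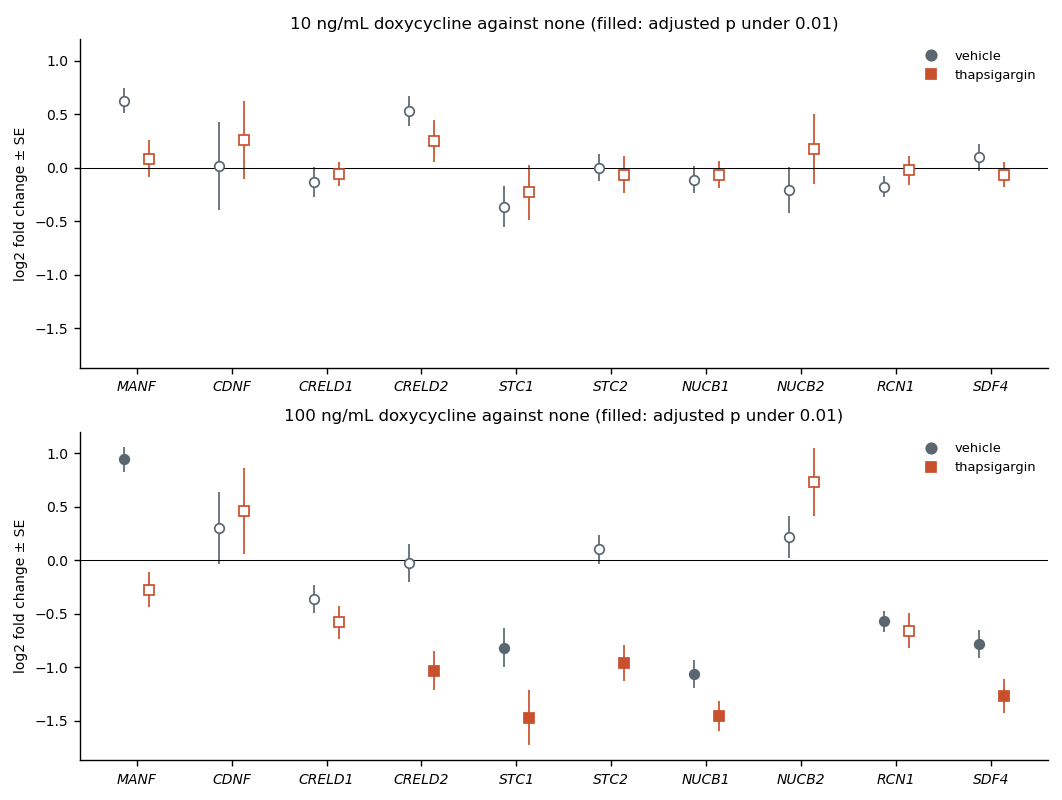
Log2 fold change of 10 ng/mL (upper panel) and 100 ng/mL (lower panel) doxycycline against none, with its standard error, for the 10 genes in vehicle (circles) and thapsigargin (squares), with filled symbols for an adjusted p under 0.01. No gene passes at 10 ng/mL, and at 100 ng/mL STC1, NUCB1 and SDF4 pass in both treatments, with MANF the only gene that passes upward.

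By dose, 0 of the 10 genes passed between 0 and 10 ng/mL in vehicle, against a background of 0.193% of genes in either direction, with 4421 genes under 0.05 before adjustment and MANF, 1 of the 10, called by DESeq2. Between 0 and 100 ng/mL in vehicle 1 gene rose, MANF, against 0.838% of all genes, and 4 fell, STC1, NUCB1, RCN1 and SDF4, against 7.49%. Between 10 and 100 ng/mL in vehicle NUCB1 and SDF4 fell, against 2.43% of all genes. The calls of the last comparison changed when 1 library was left out. Without vehicle replicate 2 at 10 ng/mL, or without vehicle replicate 1 or 3 at 100 ng/mL, 0 of the 10 genes passed. Without vehicle replicate 3 at 10 ng/mL 1 did. In these fits the difference ran from -1.07 to -0.79 log2 units for NUCB1 and from -0.97 to -0.71 for SDF4.

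Among thapsigargin-treated cells 0 of the 10 genes passed between 0 and 10 ng/mL, and 0% of all genes did by edgeR, with 612 of them at an unadjusted p under 0.05 and 39 called by DESeq2. With same-numbered libraries as a block in the edgeR fit, 564 genes were called and 0 of the 10, with CRELD2 at an adjusted p of 0.0107. Between 0 and 100 ng/mL 5 of the 10 genes fell, CRELD2, STC1, STC2, NUCB1 and SDF4, against 9.00% of all genes, and between 10 and 100 ng/mL CRELD2, STC2, NUCB1 and SDF4 fell, against 5.32%. The median difference of the 10 genes between 0 and 100 ng/mL was -0.81 log2 units in thapsigargin and -0.19 in vehicle, against 0.04 and -0.01 over all genes tested. Without thapsigargin replicate 1 at 100 ng/mL the first count became 8, with CRELD1 and RCN1 among those that fell and NUCB2 higher, in a fit whose calls over all genes went from 1512 to 3950, and without replicate 2 it became 3, with 763 genes called. STC1 missed the threshold without uninduced thapsigargin replicate 1 (edgeR adjusted p = 0.0114), and RCN1 passed it without thapsigargin replicate 3 at 100 ng/mL (edgeR adjusted p = 0.00567). For the second count the values were 2 without thapsigargin replicate 2 at 10 ng/mL and 1 without thapsigargin replicate 2 at 100 ng/mL, and STC2 alone was lost without thapsigargin replicate 1 at 10 ng/mL (edgeR adjusted p = 0.0168).

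The thapsigargin calls at 100 ng/mL also changed when 1 library was left out, while the fold changes moved little. Over the 6 such fits the log2 fold change ran from 0.86 to 0.99 for MANF, 1.43 to 1.64 for CRELD1 and 1.69 to 1.92 for STC2. Without vehicle replicate 1 or 2 at 100 ng/mL 1 of the 10 genes passed, STC2, without vehicle replicate 3 or thapsigargin replicate 2 none did, and without thapsigargin replicate 1 there were 5, with CRELD2 and NUCB2 added, in a fit that called 2568 genes in all where the full one called 29. MANF passed in that fit alone of the 6, since without thapsigargin replicate 3 its adjusted p was 0.0243 by edgeR. Thapsigargin replicate 1 at 100 ng/mL had the highest ERN2 of its group, 272 CPM against 175 and 175, and whether that bears on its other values was not tested. At 10 ng/mL the count fell from 4 to 2, CRELD1 and STC2, without vehicle replicate 2, and CRELD2 was at an adjusted p of 0.0116 (edgeR) without thapsigargin replicate 2.

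Whether the size of the thapsigargin response changed with dose was tested as an interaction over 12 libraries. At 100 against 0 ng/mL none of the 10 genes passed at 0.01, against 0.0406% of all genes. The difference of responses was -1.16 ± 0.20 log2 units for MANF (edgeR adjusted p = 0.0211), -1.01 ± 0.22 for STC2 (edgeR adjusted p = 0.0409) and -0.94 ± 0.27 for CRELD2 (edgeR adjusted p = 0.0824). CRELD1 gave -0.16 ± 0.18 (edgeR adjusted p = 0.584). DESeq2 called MANF and STC2, with adjusted p of 6.18e-06 and 0.000528, and without thapsigargin replicate 1 at 100 ng/mL edgeR called MANF, CRELD2 and STC2, in a fit that called 1286 genes in place of 6. At 10 against 0 ng/mL 0 of the 10 genes and 0% of all genes passed, with 664 genes at an unadjusted p under 0.05 and 2 called by DESeq2.

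The levels behind these differences are given without and with 100 ng/mL, and no test compared the genes with each other. For MANF the vehicle levels were 84.5 ± 9.53 and 167 ± 11.8 CPM (SD, n = 3) and the thapsigargin levels 379.8 ± 73.7 and 315 ± 30.6 CPM. For STC2 the vehicle levels were 25 ± 0.665 and 27.7 ± 4.13 CPM, and the thapsigargin levels 183 ± 36.2 and 94.3 ± 12.0 CPM. CRELD2 had 47.7 ± 4.09 and 48.1 ± 14.0 CPM in vehicle and 185 ± 36.5 and 90.6 ± 16.6 CPM in thapsigargin.

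The wider pathway was described by 4 lists. In the list of 12 ER chaperone and degradation genes all 12 rose with thapsigargin in uninduced cells, with a median of 1.97 log2 units, led by HERPUD1 at 4.08, the chaperone BiP (HSPA5) at 2.87 and its co-chaperone SDF2L1 at 2.80. Of 12 genes of the ATF4 and CHOP branch 11 rose, with a median of 2.29 and CHAC1 (4.58), DDIT3 (3.96) and TRIB3 (2.73) in front. Of 10 other ER calcium-binding genes, EF-hand proteins and the calcium sensors STIM1 and STIM2, none rose and 1 fell, RCN2 at -0.56, with a median of -0.07. Among 4 genes for KDEL receptors, which return ER proteins from the Golgi, and NPTN, a MANF receptor, 1 fell, NPTN at -0.47. The median over all genes tested was -0.01, and 6.45% of them were called higher. MANF, CRELD1, CRELD2 and STC2 had responses within the range of the first 2 lists, 0.56 to 4.58, and NUCB1, NUCB2, RCN1 and SDF4 within that of the EF-hand list, -0.56 to 0.51. The first 4 genes were named because they rose, as did nearly all genes of those 2 lists. This overlap of ranges therefore tests no likeness.

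At 10 ng/mL thapsigargin raised 8 of the 12 chaperone genes and 11 of the 12 ATF4 genes, against 1.16% of all genes. At 100 ng/mL it raised 3 and 7 of them, against 0.180%, so the counts fell along with the share over all genes. The medians of the 2 lists were 1.46 and 2.11 log2 units at 10 ng/mL and 0.78 and 1.35 at 100 ng/mL. No EF-hand or KDEL receptor gene passed in either direction at these doses. With 100 against 0 ng/mL in vehicle, 5 of the 10 EF-hand genes fell and none rose, with a median of -0.65 log2 units, led by RCN2 at -2.43, the calcium sensor STIM1 at -1.99 and the prolyl isomerase FKBP9 at -1.07. Both KDELR1 (-0.72) and KDELR2 (-0.85) fell. Over all genes tested in that comparison, 0.838% were called higher and 7.49% lower. Of the chaperone list 4 genes rose, among them DNAJB9 at 2.07 and HERPUD1 at 0.87, and 1 fell, the calcium-binding chaperone CALR at -1.45. Of the ATF4 list 2 rose and 2 fell, led by CHAC1 at 1.11 and by VLDLR at -0.89 and PSAT1 at -0.82.

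In thapsigargin-treated cells 100 ng/mL lowered 5 of the 10 EF-hand genes, 9 of the 12 chaperone genes, 2 of the 12 ATF4 genes and 2 of the 4 KDEL receptor genes, and raised none of them. The medians were -0.75, -0.90, -0.50 and -0.74 log2 units, and 9.00% of all genes tested were called lower. The largest falls were RCN2 at -2.24, STIM1 at -2.22 and FKBP9 at -1.69 among the EF-hand genes, CALR at -1.72, DNAJC3 at -1.48 and HYOU1 at -1.26 among the chaperones, VLDLR at -1.29 and DDIT3 at -0.71 in the ATF4 list, and KDELR2 at -1.20 and KDELR1 at -1.05. At 10 against 0 ng/mL the lists gave 1 call in vehicle, DNAJB9 at 1.24, and none in thapsigargin, against 0.193% and 0% of all genes. From 10 to 100 ng/mL in vehicle 2 EF-hand genes, 1 chaperone gene and 2 KDEL receptor genes fell, against 2.43% of all genes. In thapsigargin 4, 5 and 2 fell in the same order, with 1 ATF4 gene, against 5.32%.

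**Figure D4:**
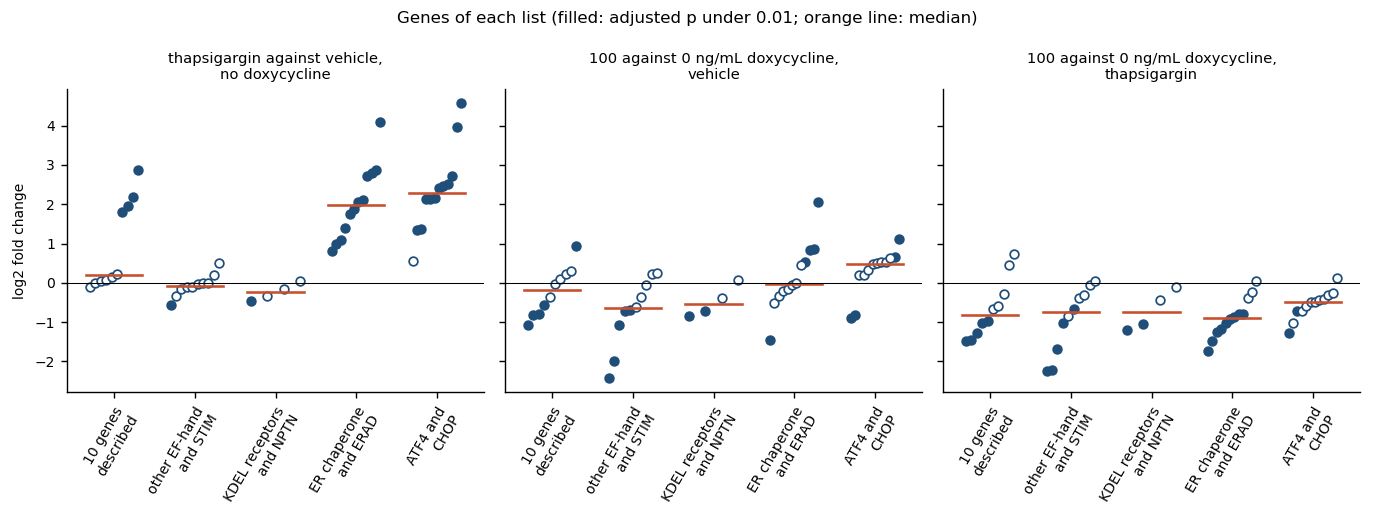
Log2 fold change of each gene in the 10 genes described and the 4 lists, 1 point per gene and the median as an orange line, for thapsigargin against vehicle without doxycycline (left) and for 100 against 0 ng/mL doxycycline in vehicle (middle) and thapsigargin (right), with filled points for an adjusted p under 0.01. The 4 called genes of the described set lie among the chaperone and ATF4 genes at left, and its lower points lie in the range of both the EF-hand and the chaperone genes in the other panels.

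The genes whose log2 CPM followed each mRNA most closely over the 18 libraries were listed by Pearson's r, as a description across libraries that share groups. For MANF they were CDC6 (0.987), HSPA5 (0.984) and VEGFA (0.981), for CRELD2 HYOU1 (0.977), KCTD15 (0.974) and SDF2L1 (0.973), for CRELD1 RCAN1, STC2 and JDP2 (0.978, 0.978 and 0.977) and for STC2 RCAN1 (0.985), DDIT3 (0.982) and PTGS2 (0.980). CRELD1 and STC2 shared RCAN1, a gene that encodes a calcineurin regulator, and STC2 was also among the genes closest to CRELD1. For NUCB1 the closest were OS9 (0.986), YIPF3 (0.986) and RETSAT (0.978), and for SDF4 FAM3A (0.986), LMAN2 (0.985) and GTF3C1 (0.983). RCN1 was followed by B4GALT1, KDELR2 and KIDINS220 (0.962, 0.957 and 0.956), STC1 by KAL1, B3GALTL and SLC7A2 (0.970, 0.953 and 0.951), and NUCB2 by USO1, UFL1 and UBXN4 (0.987, 0.974 and 0.963). CDNF, with few reads, had the lowest values, up to 0.836 for LOC101928068, then EFCAB2 (0.804) and FBXO4 (0.802).

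Within the 10 genes, 8 fell into 2 sets by their correlations over 18 libraries. MANF, CRELD1, CRELD2 and STC2 had r between 0.857 and 0.978 with each other, and STC1, NUCB1, RCN1 and SDF4 between 0.810 and 0.951. Across the 2 sets r lay between -0.30 and 0.45. NUCB2 had r = -0.64 with SDF4 and r = -0.48 with NUCB1, and r = 0.68 with CDNF, the other gene in neither set. The split was made after the values were seen, and all points share the treatment groups.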

How the data were processed

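RNA-Seq was performed on 18 libraries of HEK293doxERN2 cells in 6 groups of 3, grouped by the sample labels. The authors aligned single-end reads of stranded mRNA libraries with STAR in VIPER, and the deposited table holds unnormalized read counts by gene symbol. Their processing notes name hg38, STAR and DESeq2, and versions, annotation and strand setting are not given in the sources used here.

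The 10 genes and the gene lists were chosen with earlier results of these data known. Named genes are the 10 genes, ERN2, XBP1, HSPA5 and DDIT3, up to 3 called genes per list with the largest change, and the 3 genes closest to each of the 10 in log2 CPM (prior count 2). Each comparison used its own groups. The filter was filterByExpr (minimum count 10) and the scaling TMM. Tests were edgeR's quasi-likelihood F-tests (version 4.0.16, R 4.3.3), adjusted by Benjamini-Hochberg over all genes, with calls at 0.01. Standard errors are |log2 fold change| divided by the root of F. The background is the share of all tested genes called. CPM were scaled by TMM over 18 libraries. Levels per kilobase used merged exons of GENCODE 29 coding transcripts (GRCh38).

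Replicates of every group differed by more than sampling noise. Same-numbered libraries deviated together in all 3 pairs, by a floor set on r, in 1 of 9 comparisons. This was 10 against 0 ng/mL in thapsigargin (r = 0.381, 0.330 and 0.457). There a replicate block called 564 genes in place of 0, and 0 of the 10 genes. Alternatives were RLE size factors, DESeq2 1.42.0, no filter, all 6 groups in 1 fit, the block, an adjusted p of 0.05, and each library left out. On simulated counts both tools recovered the simulated fold changes, edgeR missed most 2-fold interactions, and both tools, DESeq2 more than edgeR, had a larger share of false calls than the threshold of 0.01.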

Additional observations from a re-analysis of the deposited data

Results flagged for a closer look

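None of the 10 genes differed between groups by the interaction test at an adjusted p of 0.01. Of the other genes named, 4 did, each with a smaller thapsigargin response at 100 than at 0 ng/mL doxycycline in the edgeR fit of 12 libraries: XBP1 (a log2 difference of responses of -2.14 ± 0.13 SE, adjusted p = 1.20e-06), HSPA5 (-1.58 ± 0.22, adjusted p = 0.00897), PDIA4 (-1.40 ± 0.19, adjusted p = 0.00897) and HERPUD1 (-1.21 ± 0.15, adjusted p = 0.00741). XBP1 alone of the 4 was also called with the replicate block and in all 12 fits with 1 library left out. HSPA5, PDIA4 and HERPUD1 missed the threshold with the block (edgeR adjusted p = 0.0150, 0.0201 and 0.0178) and were each called in 4 of the 12 fits.

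In XBP1, HSPA5 and DDIT3 every library at 100 ng/mL lay above the uninduced libraries in vehicle and below them in thapsigargin. The pattern was not particular to these genes. Other genes of the chaperone and ATF4 lists had it too, among them HERPUD1, PDIA4, ATF3, CEBPB and TRIB3. The log2 fold changes in vehicle and thapsigargin were 1.03 and -1.16 for XBP1, 0.84 and -0.80 for HSPA5 and 0.67 and -0.71 for DDIT3. Their interactions come from a separate fit of 12 libraries, and for DDIT3 it was -1.32 ± 0.19 (edgeR adjusted p = 0.0101). Groups of 3 libraries were not tested for single outlying values.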

How the results depend on the processing

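The 4 genes raised by thapsigargin in uninduced cells were called under each alternative run. No called log2 fold change reversed. Of the 162 values of called genes under an alternative that kept all libraries, 153 stayed under the threshold, and of the 162 with 1 library left out 126 did. Of values that were not called, 32 of 498 and 13 of 618 became called. Values near 0 that were not called changed sign in 12 and 54 cases, by at most 0.02 and 0.47 log2 units from 0. CDNF and STC1 are limited by read depth, and 3 libraries per group limit all interactions.

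How many of the 10 genes passed moved as follows. At 10 against 0 ng/mL in vehicle it was 1 (MANF) in place of 0 with DESeq2, with no filter and at an adjusted p of 0.05. At 100 against 10 ng/mL in vehicle it was 1 (NUCB1) in place of 2 with RLE size factors, and in thapsigargin 7 in place of 4 with all 6 groups in 1 fit and at 0.05. There it was 6 with DESeq2 and 5 with no filter. For the thapsigargin response at 100 against 0 ng/mL it was 2 (MANF and STC2) in place of 0 with DESeq2, with no filter and at 0.05, and 1 (MANF) with all 6 groups. At 100 against 0 ng/mL in thapsigargin it was 7 in place of 5 with DESeq2, with all 6 groups and at 0.05. CRELD1 and RCN1 were added there, and with no filter RCN1 alone, giving 6. For thapsigargin at 100 ng/mL it was 4 in place of 3, with CRELD2, with DESeq2, with no filter and at 0.05. At 100 against 0 ng/mL in vehicle all 6 groups in 1 fit gave 4 in place of 5, without STC1. With 1 library left out, the counts ran from 4 to 4, 2 to 4 and 0 to 5 for thapsigargin against vehicle at 0, 10 and 100 ng/mL. For 10 against 0, 100 against 0 and 100 against 10 ng/mL they ran from 0 to 2, 4 to 4 and 0 to 2 in vehicle, and from 0 to 0, 3 to 8 and 1 to 5 in thapsigargin. For the responses at 10 and at 100 against 0 ng/mL they ran from 0 to 0 and 0 to 3. The upper value at 10 against 0 ng/mL in vehicle, MANF and CRELD2, came without vehicle replicate 1 at 10 ng/mL.

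With the replicate block, 0 of the 10 genes in place of 3 passed for thapsigargin at 100 ng/mL, 2 (MANF and NUCB1) in place of 5 at 100 against 0 ng/mL in vehicle and 4 in place of 2 at 100 against 10 ng/mL in vehicle. NUCB2 was added for thapsigargin at 10 ng/mL, 5 in place of 4, and STC2 was lost at 100 against 10 ng/mL in thapsigargin, 3 in place of 4. In 8 of 9 comparisons same-numbered libraries did not deviate together clearly in all 3 pairs, with correlations of their deviations from -0.36 to 0.51. The correlations were 0.48, -0.04 and 0.42 for thapsigargin at 10 ng/mL and 0.09, 0.19 and 0.27 for thapsigargin without doxycycline. These values do not settle whether same-numbered libraries were paired.

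Counts over all genes, and so the background shares, moved by more than 1.5 times in 46 cases with all libraries kept. Without a filter, with DESeq2, with all 6 groups, with the block and at 0.05, the 212, 29, 28, 356, 805 and 6 calls for thapsigargin at 10 and 100 ng/mL, 10 against 0 and 100 against 10 ng/mL in vehicle, 100 against 10 ng/mL in thapsigargin and the response at 100 ng/mL ranged from 529 to 3620, 4 to 941, 3 to 623, 628 to 1224, 384 to 2061 and 3 to 340. RLE size factors gave 14 for the last. The 1611, 1203 and 1512 calls for thapsigargin without doxycycline and 100 against 0 ng/mL in vehicle and thapsigargin reached at most 3571, 2063 and 3018, with 750 for the second under the block. The counts of 0 at 10 against 0 ng/mL in thapsigargin and for the response at 10 ng/mL reached 564 and 2. With 1 library left out the counts ran from 731 to 1901, 28 to 494 and 4 to 2568 for thapsigargin at 0, 10 and 100 ng/mL, from 0 to 2743, 915 to 1397 and 0 to 496 for 10 against 0, 100 against 0 and 100 against 10 ng/mL in vehicle, from 763 to 3950 and 42 to 2712 for the last 2 of these in thapsigargin, and from 2 to 1286 for the response at 100 ng/mL. The cause was not tested.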
